A study of Bos taurus with 8 samples.

Results

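Genes that mark monocytes and macrophages were followed in bovine whole blood with and without a plant phenolic extract. The 10 genes were CSF1, CSF1R, CD68, MS4A7, SIRPA, CD163, ITGAX, MRC1, CD86 and AIF1, taken by their symbol in the authors' deposited table of group averages and read probe by probe on the arrays. That table held 9 of the 10, with 18 probes of 60 bases, among 16966 named genes in all. ITGAX was not found under its symbol and was not analysed here.

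Monocytes are made in the bone marrow, circulate in blood and can enter tissue, where they become macrophages or dendritic cells. CSF1, a secreted growth factor, binds the receptor tyrosine kinase CSF1R on these cells and keeps them alive, dividing and maturing. The other genes encode surface proteins and proteins of the cell interior: CD68 in lysosomes, MS4A7 in the membrane of macrophages, SIRPA as the inhibitory receptor for CD47, CD163 and MRC1 as scavenging and uptake receptors, CD86 as the ligand that co-stimulates T cells, and AIF1 as a calcium-binding protein on actin. In blood several of them are shared, SIRPA with neutrophils and CD86 with dendritic and B cells, while CD163 and MRC1 are best known from tissue macrophages.

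Both groups were fresh peripheral blood of female Holstein Friesian cows, 5 in number, kept for 30 min at 37 °C under 5% CO2. In the CPE group the blood held 10 µg/ml of a phenolic extract of cowpea leaf, and the CONTROL group was incubated without it. All cows had received a probiotic for 60 days before the draw, so no group stands for blood of cows without it, and no source used here gives their age. Per the series text the RNA hybridised was pooled within each group, and each group of 4 arrays lay on its own slide, so that treatment and slide cannot be told apart. Nothing says that the arrays of a group came from separate cows, so the p-values below measure the spread between arrays, which may be technical.

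The arrays carried 43803 spots for transcripts, and large areas of each were dim. A spot was called lit on an array when its 61 nearest spots reached a bright level, defined as a 90th percentile no more than 1.5 log2 units below the 90th percentile of all such local values on that array. By this measure 43.2 to 50.2% of spots were lit on the CPE arrays and 31.9 to 40.8% on the CONTROL arrays, and 29.7% were lit on all 8. The 75th percentile of processed signal was 135 to 280 on the CPE arrays and 53.4 to 150 on the CONTROL arrays. A comparison between groups was therefore made among the spots lit on all 8 arrays, called the lit area below, and levels are log2 processed signal relative to the 75th percentile of those spots on the same array. Levels of different probes were not compared as amounts of RNA, because probes differ in how well they bind.

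Of the 18 probes, 7 lay in the lit area, 5 were lit on some arrays and 6 on none. The scanner software called 6 of the 7 well above background on all 8 arrays, and these 6 stood for 5 genes: CSF1R with 2 probes, and SIRPA, AIF1, MS4A7 and CD86 with 1 each. The seventh probe, for CSF1, was well above background on the CONTROL arrays only. At the other end, 5 probes were well above background on no array, and these included every probe of CD163 and MRC1.

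**Figure D1:**
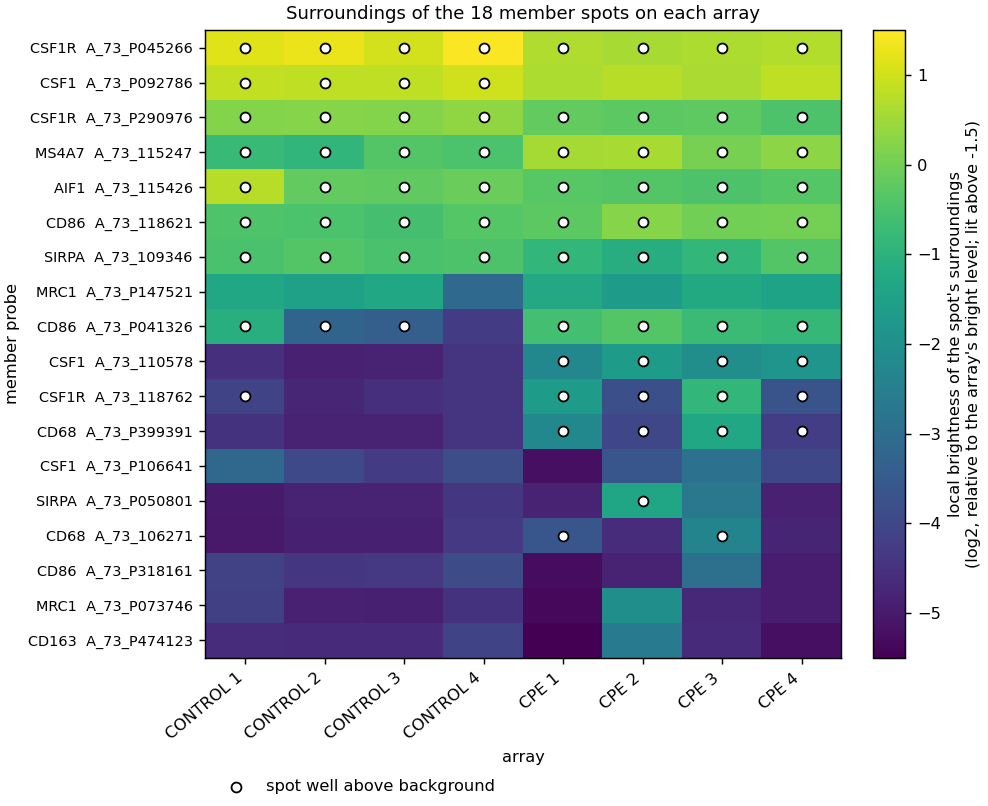
Brightness of the spots around each of the 18 probes (rows) on each of the 8 arrays (columns), in log2 units relative to the bright level of that array, where above -1.5 is lit; a white dot marks a spot well above background. The 7 upper rows are lit on every array, while most of the lower rows are dark on the CONTROL arrays and change between CPE arrays.

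The 3 CSF1R probes and the lit CSF1 probe are shown by their first 30 bases, since what was read for the ligand and its receptor depends on which probe is taken. Capitals mark the run of 52 bases that the first pair of CSF1R probes share, bases 9 to 60 of the first and 1 to 52 of the second, as far as it lies in the stretch printed.
CSF1R A_73_P045266: ctcatcgtAACTAACAGTCACAAAGTGGAA
CSF1R A_73_118762: AACTAACAGTCACAAAGTGGAATGTCCCTG
CSF1R A_73_P290976: tggtatcctggtgaacagcaagttctataa
CSF1 A_73_P092786: tatagtattttaaagatcaagaaagcaaat
The third CSF1R probe shares at most 5 bases in a row with either of the others. Between other probes of the same gene the longest shared run was 10 bases, in CD86.

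For the ligand CSF1, the signal of the lit probe A_73_P092786 was lower in CPE. Its processed signal was 103, 93.3, 90.1 and 93.5 on CONTROL arrays 1 to 4, and 18.4, 14.0, 6.02 and 20.9 on CPE arrays 1 to 4. All 4 CONTROL spots were well above background and none of the CPE spots was, so the CPE level is uncertain. Relative to the lit area the measured means were -2.86 ± 0.16 (SD, n = 4) in CONTROL and -5.51 ± 0.43 in CPE. The fold was also counted with each CPE signal set no lower than the lowest signal called well above background in its array's lit area. By this count the signal was 4.38-fold lower in CPE. On 1 CPE array the spot's own signal was higher than that lowest signal and still not called well above background. So 4.38 is no strict lower bound. This probe was left out of the test, which required a spot above background on every array. Unlike the other CSF1 probes, it was not matched to RefSeq.

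The other CSF1 probes did not show this difference in a lit place. Probe A_73_110578 gave 35.8, 22.8, 26.1 and 16.1 on CONTROL arrays 1 to 4 and 46.3, 114, 107 and 37.3 on CPE arrays 1 to 4. It was lit on none of the 8 arrays, and it was well above background on the 4 CPE arrays only, so the group that was higher was the other one. Probe A_73_P106641 was well above background on no array, with no signal above 10.15.

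The receptor CSF1R was lower in CPE by both of its lit probes. For A_73_P045266 the level was 3.22, 3.36, 3.33 and 3.59 on CONTROL arrays 1 to 4 and 2.82, 2.83, 1.98 and 2.88 on CPE arrays 1 to 4. The groups did not overlap, and CPE array 3 lay well under the other CPE arrays. The level fell by 0.74 (SE 0.20), a 1.67-fold difference, with adjusted p = 0.0142 (limma, Benjamini-Hochberg over the 7197 probes tested). Without CPE array 3 the change was -0.53, with adjusted p = 0.00191 in limma.

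The second lit CSF1R probe changed less. For A_73_P290976 the level was -1.90, -2.005, -1.95 and -1.94 on CONTROL arrays 1 to 4 and -2.30, -2.17, -2.28 and -2.30 on CPE arrays 1 to 4. All CPE arrays lay under all CONTROL arrays. The change was -0.32 (SE 0.07), a 1.24-fold difference, with adjusted p = 0.00642 in limma. After normexp background correction it was -0.07 (limma adjusted p = 0.847), which ended the call.

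The third CSF1R probe went the other way, in dim surroundings. A_73_118762, which shares 52 bases with A_73_P045266, gave a processed signal of 103, 20.02, 18.04 and 22.5 on CONTROL arrays 1 to 4 and 1258, 139, 4527 and 130 on CPE arrays 1 to 4. Its surroundings were lit on CPE array 3 alone, at -0.86 log2 units from the bright level, and lay between -4.75 and -4.07 on the CONTROL arrays. CPE arrays 1 and 3 had both the brightest surroundings, -1.66 and -0.86, and the highest signals. On the same arrays 1 and 3, A_73_P045266 gave 5268 and 1576. So the overlapping probes ranked these arrays in opposite order, and the difference in the authors' deposited table was -1.86 for A_73_P045266 and 3.28 for A_73_118762.

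SIRPA, the myeloid receptor that restrains uptake of cells bearing CD47, was lower in CPE. For A_73_109346 the level was 4.45, 4.55, 4.54 and 4.69 on CONTROL arrays 1 to 4 and 3.72, 3.62, 3.76 and 3.76 on CPE arrays 1 to 4. No arrays overlapped, and the gap between groups was several times the spread within either. The level fell by 0.85 (SE 0.08), a 1.80-fold difference, with adjusted p = 7.57e-05 in limma. In bulk blood fewer cells of a type and less RNA per cell cannot be told apart, here or in any result below. The other SIRPA probe, A_73_P050801, was lit and well above background on CPE array 2 alone, with a signal of 52.8 there and 10.9 to 37.0 on the other arrays. Only this other probe was matched to RefSeq as SIRPA.

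AIF1, an actin-binding protein of monocytes and macrophages, was lower by a smaller amount. The level of A_73_115426 was 2.85, 2.92, 2.95 and 3.08 on CONTROL arrays 1 to 4 and 2.56, 2.57, 2.72 and 2.55 on CPE arrays 1 to 4. The groups lay close but did not overlap. The change was -0.35 (SE 0.08), a 1.28-fold difference, with adjusted p = 0.00742 in limma.

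MS4A7, a membrane protein of macrophages, was higher in CPE. The level of A_73_115247 was 2.01, 1.71, 2.05 and 1.96 on CONTROL arrays 1 to 4 and 2.77, 2.81, 2.98 and 2.44 on CPE arrays 1 to 4. Every CPE array lay above every CONTROL array. The change was 0.82 (SE 0.13), a 1.77-fold difference, with adjusted p = 0.00106 in limma.

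CD86, the co-stimulatory ligand for CD28, was higher in CPE as well. The level of A_73_118621 was -1.69, -1.57, -1.58 and -1.58 on CONTROL arrays 1 to 4 and -1.12, -0.70, -1.01 and -1.02 on CPE arrays 1 to 4. The CONTROL arrays lay close together, and CPE array 2 stood highest. The change was 0.64 (SE 0.10), a 1.56-fold difference, with adjusted p = 0.00103 in limma.

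A second CD86 probe, A_73_P041326, gave 890, 104, 152 and 11.6 on CONTROL arrays 1 to 4 and 757, 810, 543 and 618 on CPE arrays 1 to 4. It was lit on the CPE arrays and on CONTROL array 1, and there the CONTROL signal was the highest of the 8 before scaling. The 75th percentile over the lit area was 766 on CONTROL array 1 and 399 to 749 on the CPE arrays. The order of these unscaled signals is therefore no order of levels. The third, A_73_P318161, was well above background nowhere.

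**Figure D2:**
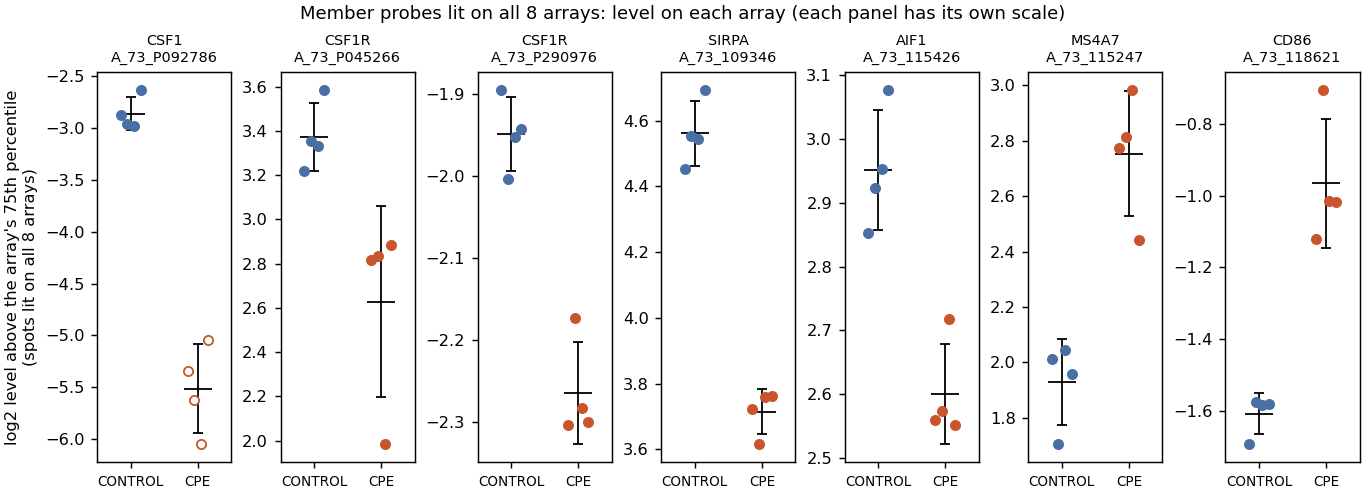
Level (log2 processed signal relative to the array's 75th percentile over the lit area) of the 7 probes in the lit area, 1 panel per probe with its own scale; points are arrays, open where the spot was not well above background, the long bar is the mean of 4 arrays and the error bars are 1 SD. In every panel the groups are apart: CPE is lower for CSF1, CSF1R, SIRPA and AIF1, and higher for MS4A7 and CD86.

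All 6 probes tested were thus called, 2 higher and 4 lower in CPE, and the groups did not overlap for any. Against this stands the background of the arrays: 48.3% of the 7197 probes tested were called, 22.8% higher and 25.5% lower, and the groups did not overlap for 50.2%. Without scaling between arrays the split of calls over all probes was 271 higher and 913 lower, against 1643 and 1834, and the median of all probes moved from -0.005 to -0.18; local centring, used below, moved it to 0.11. Counted by gene, 5 of 5 were called, where 47.2% of the 4825 named genes tested were, and 49.2% of those had groups that did not overlap. The genes' median change was -0.35, and that of all named genes tested was 0.02, with the middle range from -0.33 to 0.34. SIRPA, MS4A7, AIF1, CSF1R by A_73_P045266 and CD86 lay outside that middle range, AIF1 just outside, while CSF1R by A_73_P290976 lay inside it.

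Within the lit area the brightness of the surroundings moved with these results. For all 7 probes, the untested CSF1 probe included, it differed between groups in the same direction as the probe. Over all 7197 probes tested in the lit area, 6 of the 7 among them, it did so for 56.2%. The difference was 1.00 log2 units for MS4A7, 0.46 for CD86, -0.17 for CSF1, -0.34 for SIRPA, -0.43 for AIF1, and -0.59 and -0.54 for CSF1R by A_73_P045266 and A_73_P290976. The AIF1 value was -0.20 without CONTROL array 1, a reading added after seeing the data. When each spot was set against its neighbours on the same array (local centring), SIRPA kept a change of -0.66 (limma adjusted p = 8.16e-06) and CD86 one of 0.45 (3.36e-05). MS4A7 shrank to 0.31 (limma adjusted p = 0.00619) and CSF1R by A_73_P045266 to -0.29 (0.00119), 2.63 and 2.60 times smaller than without it, and A_73_P290976 gave -0.26 (0.00489). AIF1, at -0.13 (limma adjusted p = 0.0913), was no longer called. Without scaling between arrays, of these 6 probes only SIRPA was called, at -1.02 with limma adjusted p = 0.00922.

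The genes read outside the lit area had no usable comparison of groups. CD68, the lysosomal protein widely used to stain macrophages, had a signal of 8.03 to 10.15 on the CONTROL arrays by A_73_P399391, and 318, 200, 1368 and 157 on CPE arrays 1 to 4. The spot was well above background on the CPE arrays only, but it was lit on CPE array 3 alone, the array with the highest signal. Its surroundings on the CONTROL arrays lay between -4.83 and -4.45 log2 units from the bright level. The other CD68 probe, A_73_106271, was lit nowhere, and gave 10.07 to 12.7 on the CONTROL arrays and 37.4, 13.9, 241 and 17.3 on CPE arrays 1 to 4. Again CPE arrays 1 and 3, the 2 where this spot was well above background, also had its brightest surroundings.

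CD163, the receptor for haptoglobin-bound haemoglobin, had a single probe with signals of 8.03 to 10.15 in CONTROL and 3.72 to 24.2 in CPE, not well above background and not lit on any array. MRC1, the mannose receptor, was likewise not well above background by either probe. Its probe A_73_P147521 lay in lit surroundings on 6 of the 8 arrays, all but CONTROL array 4 and CPE array 2, and its signal was no higher than 10.4. These surroundings lay just inside the limit, between -1.48 and -1.25 log2 units from the bright level, and with a limit of 1 log2 unit none of the 8 was lit. The surroundings of CD163 were dim on all 8 under either limit.

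Over whole arrays, without regard to lit areas, the same probes gave another picture. Scaled to each array's 75th percentile over all spots, the median of the 9643 probes tested was -1.05, and 38.3% of them were called, 2.13% higher and 36.1% lower. That median was -0.86 with quantile normalisation, -0.50 with normexp, -0.11 without scaling and 0.14 with local centring, and the calls, 205 higher and 3484 lower, became 446 and 621 without scaling and 3856 and 2268 with local centring. SIRPA was at -1.97 (limma adjusted p = 0.00481), CSF1R by A_73_P045266 at -1.87 (0.0095), AIF1 at -1.47 (0.0237) and CSF1R by A_73_P290976 at -1.44 (0.0266). CD86 at -0.48 (limma adjusted p = 0.412) and MS4A7 at -0.30 (0.603) were not called, and relative to the median of -1.05 they were higher. Their sign depended on the scaling: unscaled they were at 0.47 and 0.65, and with local centring at 0.45 and 0.16. AIF1 and CSF1R by A_73_P290976 lost the call without CPE array 2 or without CONTROL array 2, 3 or 4, with limma adjusted p between 0.0655 and 0.0995, and CSF1R by A_73_P045266 lost it without CONTROL array 4 (0.0514). The authors' deposited table has its values on this whole-array scale, with -1.97 for SIRPA and -0.297 for MS4A7. Its 3 highest values among the 18 probes belonged to CD68 by A_73_P399391, at 4.27, CSF1R by A_73_118762 and CD86 by A_73_P041326, at 1.63, none of which was lit on all 8 arrays.

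**Figure D3:**
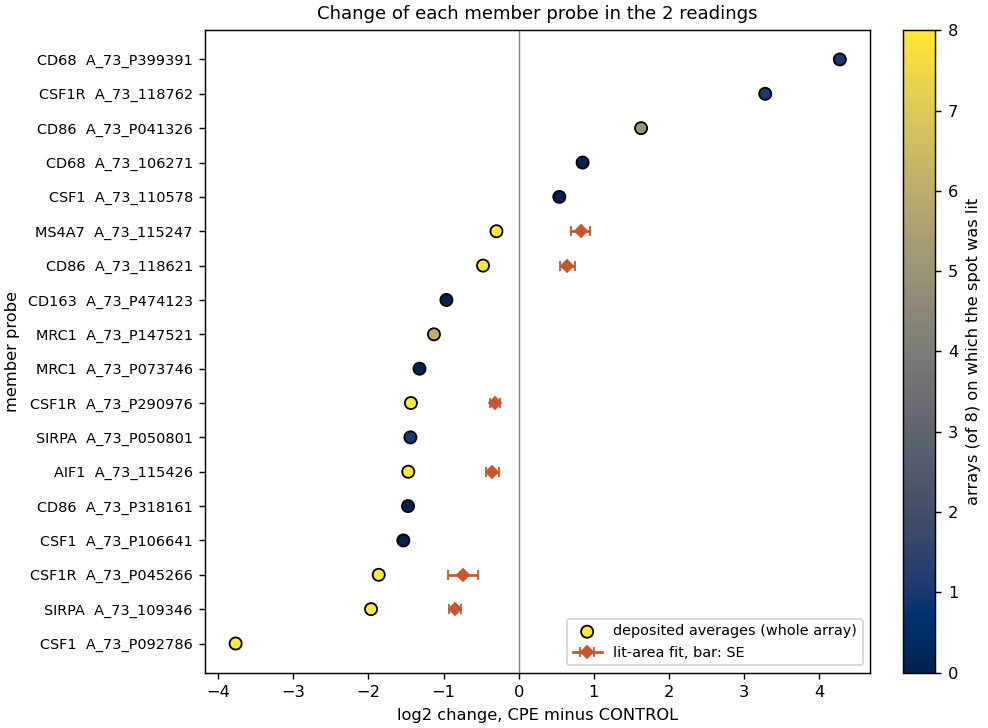
Log2 change, CPE minus CONTROL, of each of the 18 probes in the authors' deposited averages (circles, coloured by the number of arrays on which the spot was lit) and, for the 6 probes tested, in the lit area (diamonds, with the SE). The 5 circles above 0 all belong to probes that were not lit on all 8 arrays, and MS4A7 and CD86 by A_73_118621 are below 0 in the averages and above 0 in the lit area.

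A wider list of 58 genes of monocytes and macrophages was then read in the lit area, with 1 probe per gene. Of these, 54 were on the array and 21 could be tested: 2 rose, 7 fell and 12 passed in neither direction. With local centring 7 rose and 9 fell, where 3173 of all 7197 probes tested were called higher and 2004 lower. The median change was -0.11, where 23.8% of all named genes tested were called higher and 23.4% lower. CD74, the invariant chain of MHC class II, fell by 0.94 (SE 0.08, limma adjusted p = 4.79e-05), and TREM1, a receptor that amplifies inflammatory signals, fell by 0.86 (SE 0.08, 5.77e-05). CSF3R, the receptor for granulocyte colony-stimulating factor, fell by 0.93 (SE 0.09, 6.77e-05). For these 3 genes the groups did not overlap, and with local centring the changes were -0.66, -0.93 and -0.77.

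STAB1, a scavenger receptor of macrophages, had the lowest value of the list. Its level was -0.33, -0.17, -0.29 and 0.03 on CONTROL arrays 1 to 4 and -1.17, -1.10, -2.53 and -1.09 on CPE arrays 1 to 4, so that CPE array 3 was again apart. It fell by 1.28 (SE 0.31, limma adjusted p = 0.00842), by 0.60 with local centring, by 0.68 with normexp, and by 0.36 by another lit probe (0.0471). The remaining falls were TLR4, the receptor for bacterial lipopolysaccharide, at -0.85, CX3CR1, the fractalkine receptor, at -0.75, and C1QB, a chain of complement C1q, at -0.25. With normexp TLR4 was at -0.28 and no longer called (limma adjusted p = 0.426), and with local centring CX3CR1 was at -0.40. A second lit C1QB probe gave 0.39 and was called in the other direction, so C1QB has no settled direction here. Over whole arrays none of the 24 genes of the list that could be tested was called higher and 11 were called lower in limma, where 36% of the 6083 named genes tested were called, 1.94% higher and 34% lower.

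Of the 2 rises, APOE, a lipid carrier made by macrophages, was the larger. Its level was 4.17, 3.99, 4.35 and 3.91 on CONTROL arrays 1 to 4 and 5.24, 5.25, 5.59 and 5.22 on CPE arrays 1 to 4. The groups were well apart, with a change of 1.22 (SE 0.13, limma adjusted p = 0.000116), while another lit APOE probe gave 0.32 (0.073). IRF8, a transcription factor of the monocyte and dendritic lineage, rose by 0.25 (SE 0.09, limma adjusted p = 0.0374). Its groups overlapped, and it lost the call without scaling, where it was at 0.08, and with normexp. It also lost the call when any array but CPE array 3 or CONTROL array 4 was left out, with adjusted p up to 0.106. CD14, the lipopolysaccharide co-receptor by which monocytes are commonly sorted and which was chosen here after its value was seen, was well above background on all 8 arrays and gave 0.05 (limma adjusted p = 0.763). Its level was -1.85, -1.97, -1.97 and -1.65 on CONTROL arrays 1 to 4 and -1.57, -2.14, -1.74 and -1.78 on CPE arrays 1 to 4, with overlap.

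Downstream of the receptor, 9 of 24 genes of CSF1R signalling could be tested, CSF1R itself among them. Of these, 2 rose, 3 fell and 4 passed in neither direction, with a median of 0.14. Those 5 calls of 9 stand beside 47.2% of all named genes tested, 23.8% higher and 23.4% lower. FYN, a kinase of the Src family, rose by 0.65 (SE 0.13, limma adjusted p = 0.00376), and SHC1, an adaptor that links receptors to RAS, rose by 0.41 (SE 0.15, 0.049). INPP5D, the lipid phosphatase SHIP1 that limits signalling through PI3-kinase, fell by 0.76 (SE 0.20, limma adjusted p = 0.0132), and ETS2, a transcription factor activated by CSF1R signalling, fell by 1.02 (SE 0.32, 0.0276). Another lit ETS2 probe gave -0.27 (limma adjusted p = 0.125), and ETS2 lost the call without any CONTROL array (adjusted p up to 0.0683). The ETS2 change was -0.65 without CPE array 3, -0.60 with normexp and -0.31 with local centring. SHC1 lost the call without any CONTROL array and without CPE array 3 or 4 (limma adjusted p up to 0.117), and also with quantile normalisation, without scaling and with normexp, and its change was 0.26 without CPE array 2. INPP5D was at -0.22 with normexp and no longer called (limma adjusted p = 0.639), and FYN lost the call without scaling (0.191). LYN and SRC, kinases of the Src family, and IL34, the second ligand of CSF1R, had values of 0.14, -0.19 and 0.23 and were not called.

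Markers of other blood cells moved too, and their part in the results above was not tested. The counts below stand beside 23.8% of all named genes tested called higher and 23.4% lower. Of the T cell genes 6 of 10 rose and none fell, with a median of 0.56; over whole arrays 0 of 12 were called higher and 1 lower, with a median of -0.76. Among these, CD5 was at 1.36 and CD3D at 1.04. The summed level of the T cell genes, in multiples of the array's 75th percentile, was 62.7 to 89.6 on the CPE arrays and 42.7 to 47.5 on the CONTROL arrays. Such a sum gives most weight to the brightest probes, and probes differ in how well they bind. The summed level of the 5 genes tested among those described here was 32.5 to 33.4 in CPE and 42.8 to 50.5 in CONTROL, and that of the wider list was 176 to 188 and 194 to 210. Of the NK cell genes 2 of 6 rose, GNLY by 1.25 and KLRD1 by 0.95, and 2 fell, NKG7 by 0.79 and CD244 by 0.58, with sums of 36.0 to 40.4 and 19.7 to 23.0. GNLY made up most of these sums, at a mean log2 level of 5.05 in CPE and 3.79 in CONTROL. NKG7, the next brightest, was at 1.23 and 2.02, the other direction. KLRD1 lost the call with normexp (limma adjusted p = 0.223), and NKG7 and CD244 were at -0.26 and -0.38 with local centring.

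Neutrophils carry SIRPA, and the neutrophil list used here shared 2 genes with the wider list, CSF3R and FCGR3A. Which other genes of the wider list neutrophils express was not examined. Of the neutrophil genes 2 of 5 rose, BPI by 0.43 and S100A12 by 0.24, and 2 fell, CXCR2 by 0.99 and CSF3R by 0.93. BPI had no level on CONTROL array 1, so its change rests on the other CONTROL arrays. CXCR2 was at -0.63 with local centring, and BPI lost the call without scaling (limma adjusted p = 0.486). The summed level of the neutrophil genes was 106 to 120 in CPE and 102 to 112 in CONTROL, with BPI missing from the sum of CONTROL array 1. S100A12 made up most of it, at a mean log2 level of 6.59 in CPE and 6.35 in CONTROL. CSF3R, the next brightest, was at 3.14 and 4.07, the other direction. S100A12 turned to -0.08 under quantile normalisation and lost the call without scaling and with normexp. It also lost it without any CPE array but the third and without CONTROL array 1, 2 or 3 (limma adjusted p up to 0.103).

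Of the 4 B cell genes tested none was called in limma, in either direction, though another lit CD79A probe was at -0.38 (limma adjusted p = 0.00578), and their sums overlapped, at 32.3 to 39.3 in CPE and 34.1 to 37.2 in CONTROL. Of 3 dendritic cell genes 2 rose, IRF4 by 0.80 and CD1E by 0.49, with sums of 4.12 to 5.27 and 3.67 to 4.51, and another lit IRF4 probe gave -0.002 (limma adjusted p = 0.993). Another lit probe of LAMP3, the third of these genes, was at -0.45 and was called lower (limma adjusted p = 0.0086). Neither IRF4 nor CD1E was called without scaling (limma adjusted p = 0.174 and 0.470) or with normexp (0.0528 and 0.052). The platelet chemokine PPBP rose by 1.46, and by 0.86 with local centring, with platelet sums of 1.84 to 2.42 and 0.959 to 1.24 over 2 genes, and the beta globin HBB, the red cell gene tested, was at 0.28 (limma adjusted p = 0.141), with levels of 103 to 166 and 99.9 to 123. No gene of eosinophils and basophils could be tested.

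**Figure D4:**
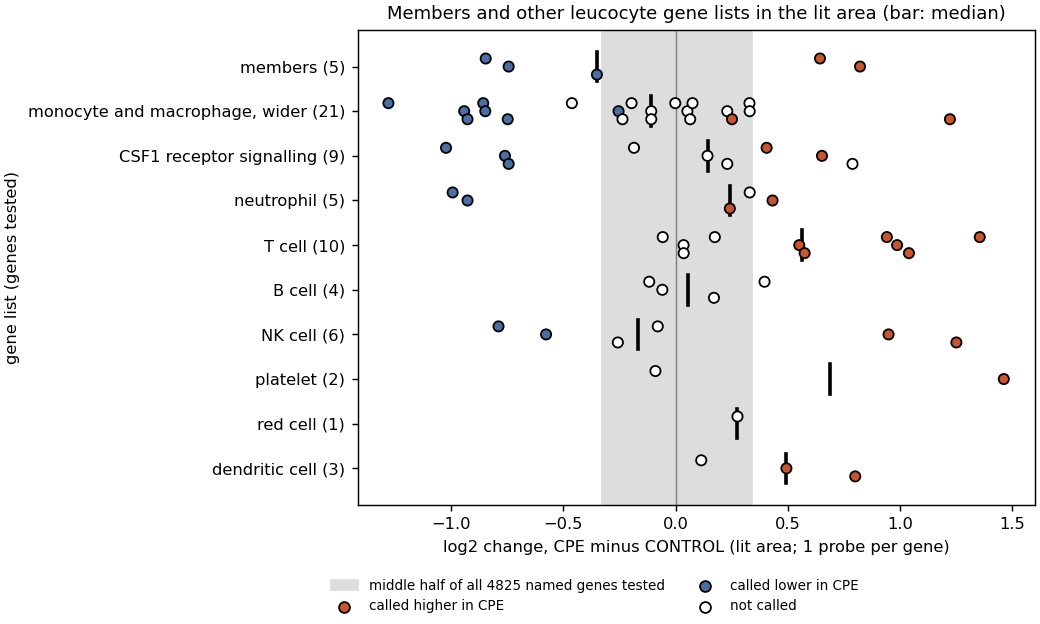
Log2 change, CPE minus CONTROL, in the lit area for the genes tested in each list, 1 probe per gene; filled points were called in limma, open points were not, the black bar is the median and the grey band is the middle range of all 4825 named genes. The wider monocyte list spreads on both sides with 7 falls and 2 rises (9 and 7 with local centring), and the T cell list has rises but no falls. With local centring 3173 of all 7197 probes tested were called higher and 2004 lower.

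Among the other named genes of the lit area, those closest in pattern were found for each probe tested, as the smallest root mean square distance of centred log2 levels over the 8 arrays. SORL1 and TCN2 lay nearest SIRPA, at 0.04 and 0.05, GPD1 and CDS2 nearest AIF1, both at 0.03, and MLX and VPS26B nearest MS4A7, at 0.06 and 0.10. TPM3 and NUDT1 lay nearest CD86, both at 0.06. LOH12CR1 lay nearest CSF1R by A_73_P045266, at 0.04, and BOLA-DQB and CCDC101 nearest CSF1R by A_73_P290976, at 0.04 each. None of these was a gene of the monocyte lists used, and the distances carry no test.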

How the data were processed

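Whole blood RNA was labelled with Cy3 and hybridised on 8 one-colour Agilent bovine 4x44K arrays. Each deposited scanner file gives an intensity for every spot. Per the submitters' processing notes Agilent Feature Extraction 10.10.1.1 was used, and per the file headers the processed signal was background-subtracted and spatially detrended. The authors also deposited a table of log2 averages per group. A comparison with the arrays showed how these were scaled (r = 0.995 for CONTROL and 0.997 for CPE over 43653 probes; column medians 0.458 and -0.596): as log2 signal shifted to each array's 75th percentile and centred on each probe's median over the 8 arrays.

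Control and outlier spots (12 to 73 per array) were left out; no spot was saturated. Log2 processed signal minus the 75th percentile was fitted with limma 3.58.1 (R 4.3.3, lmFit and eBayes, no covariates) over probes well above background on all 8 arrays, with 2-sided p-values adjusted by Benjamini-Hochberg over all probes tested and a threshold of 0.05. The fit was tested on simulated data with independent noise for each probe and array. No slide or brightness effect was simulated, so that test cannot show how the fit behaves where these differ between groups. The number of arrays limits the precision. Alternatives were other scaling, normexp (offset 50), other filters, a replicate block, a trended and robust prior, local centring, other lit limits and each array left out. Normexp used the median signal, as no mean signal column was at hand. Whether replicate numbers pair the arrays was not settled by the check made on them.

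Named were the 10 chosen genes, up to 4 rises and 4 falls of the wider list and of CSF1R signalling, up to 2 of each from other lists, and the 2 nearest patterns per probe, the largest changes first; TLR4, CX3CR1, C1QB, CD14, LYN, SRC and IL34 were added after their values were seen. Some genes that these rules name are not reported here. A gene with several tested probes was represented in list counts by the one with the highest mean. The genes and lists were chosen with earlier results of these data known. Of the 18 probes, 13 matched RefSeq by accession with the same symbol. The 5 not matched included the lit probes A_73_109346 of SIRPA and A_73_P092786 of CSF1, whose identity rests on the symbol in the authors' table. No coordinates are given, since the array design and the reference table use different builds.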

Additional observations from a re-analysis of the deposited data

Results flagged for a closer look

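In 4 of the 18 groups of 4 arrays examined, 1 array stood far from the other 3 by Dixon's criterion. Chance alone flags about 1 group in 20. CSF1R by A_73_P045266 was at 1.98 on CPE array 3, where the others were at 2.82 to 2.88. AIF1 was at 2.72 on the same array, with the others at 2.55 to 2.57. CSF1R by A_73_P290976 was at -2.17 on CPE array 2, with the others at -2.30 to -2.28. CD86 by A_73_118621 was at -1.69 on CONTROL array 1, with the others at -1.58 to -1.57. CPE array 3 also had the lowest 75th percentile over the lit area, 399, where the other CPE arrays had 689 to 749.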

How the results depend on the processing

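In the lit area 3477 probes were called (1643 higher, 1834 lower); this became 1184 (271 and 913) without scaling, 1877 (952 and 925) with normexp and 5647 (1983 and 3664) without a filter on dim probes. Of the 6 probes called, 1 was called without scaling (MS4A7 0.65, AIF1 -0.52, CD86 0.47, CSF1R -0.92 and -0.49 lost the call). The wider list's 9 calls became 16 with local centring (7 higher, 9 lower), where 5177 of all 7197 probes tested were called (3173 higher, 2004 lower). Leaving out each array gave 2876 to 4046 probes, 6 of the 6 probes each time and 7 to 12 of the wider list. With a lit limit of 1 log2 unit the SIRPA spot was outside the lit area. Over whole arrays 3689 probes were called (205 and 3484), against 1067 (446 and 621) unscaled, 2244 (223 and 2021) after quantile normalisation, 2068 (199 and 1869) with normexp, 5816 (2585 and 3231) with the filter in 1 group, 6318 (2660 and 3658) without a filter and 6124 (3856 and 2268) with local centring; 1548 to 5400 with an array left out. The 4 probes called there became 1 without scaling and 1 without a filter (1 to 4 with an array left out), and the wider list's 11 became 5 without scaling and 17 with local centring (6 to 16 with an array left out).

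Over whole arrays MS4A7 turned from -0.30 to 0.18 (quantile), 0.65 (no scaling), 0.075 (normexp) and 0.16 (local centring), and CD86 from -0.48 to 0.47 (no scaling) and 0.45 (local centring). In the authors' averages both opposed the lit area, at -0.297 and -0.475. S100A12 turned to -0.077 (quantile). The fits with an array left out were followed for 26 list genes, with LYN, SRC, IL34, LAMP3 and HBB not among them. Of the 26, 21 stayed on their side of the threshold whichever array was left out. The exceptions were C1QB, IRF8, SHC1, ETS2 and S100A12. The cause was not tested, beyond the changed construction of each alternative. With the replicate block 3423 probes of the lit area were called, and 17 of the wider list over whole arrays. The correlation of same-numbered arrays' deviations was -0.12, -0.17, 0.29 and 0.41 in the lit area. Differently numbered arrays were not set beside these, so the check cannot tell whether same-numbered arrays were paired.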
